A study of Mus musculus with 12 samples.

Results

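A set of 50 genes of the extracellular matrix and of the contractile apparatus was followed in mouse granulosa cells, which nurse the oocyte inside the ovarian follicle. The genes were listed by symbol for their roles and for their contrast between Inha-/- and wild-type cells, so this contrast is described below with no p-value and nothing is read from its counts. A single-gene probe set, meaning a probe set whose annotation names 1 gene, was found for 48 of the 50 genes, and each of the 48 was among the 12500 genes fitted. Fbn1 was not analysed here, and neither was Loxl2, which is named only on 2 probe sets that carry several genes. The 48 genes were 13 collagens, 10 elastic fibre and crosslinking genes, 5 proteoglycans, 8 matricellular and other secreted matrix genes, 6 laminins and nidogens, and 6 contractile genes.

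Inha encodes the alpha subunit shared by the inhibins, gonadal hormones that oppose activins. Mice of the strain background C57BL/6J;129S5/SvEvBrd were either wild type or Inha-/-, and all were 21 days old when 5 IU of PMSG was injected, a gonadotropin that drives follicles to the preovulatory stage. Cells were taken 44 to 46 h later, or after a further 6 h with 5 IU of hCG, which mimics the luteinizing hormone surge that triggers ovulation. The 4 groups are called wild type after PMSG, Inha-/- after PMSG, wild type after hCG and Inha-/- after hCG, and each held 3 arrays of samples that the labels call independent. All mice, controls included, had received PMSG. Antral follicles were punctured to obtain the cells and the labels name no sorting step, so other cells of the follicle wall and the oocyte may have been carried along. The labels used here do not say which part of Inha is deleted, nor how many mice gave a sample, and p-values measure the spread between these samples only. Every value below is a log2 expression value centred on the median of its probe set over the 12 arrays, so it is a difference from that median and not a level. Where a group lies near background, a fold is therefore no ratio of levels, and whether a defining marker of a cell type was absent cannot be read from these values.

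The fibrillar collagens form the tensile scaffold of tissues, elastin and its microfibrils give recoil, and lysyl oxidases crosslink both. Laminins, nidogens and type IV collagen form basement membranes, of which the follicular basal lamina separates the granulosa layer from the theca. The outer theca holds contractile cells that express smooth muscle actin and myosin, while the granulosa layer is known for little fibrillar collagen. Matrix around the follicle is broken down and rebuilt at ovulation.

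Inha itself read between 5.40 and 5.87 on the wild-type arrays and between -7.40 and -5.40 on the Inha-/- arrays. Array medians over all probe sets lay between -0.020 and 0.093. Serial numbers in the array names form an early set of 7 and a late set of 5. Replicates 2 and 3 of either genotype after hCG belong to the late set, as does replicate 3 of Inha-/- after PMSG. Hybridization controls averaged -1.17 to -0.028 in the early set and 0.78 to 1.31 in the late set. Within the Inha-/- groups the 48 genes varied more than most: their median SD over 3 arrays was 0.76 after PMSG and 0.88 after hCG, against 0.35 and 0.24 for all genes tested. In wild type it was 0.28 and 0.39, against 0.22 and 0.27. Replicate 1 of Inha-/- was the lowest of its 3 arrays for 36 of the 48 genes after PMSG and for 43 after hCG, while the shares over all genes were 24.5% and 41.4%. Values without these arrays are given beside the counts that move.

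The genotype comparison addresses which genes differ in cells without inhibin alpha. After PMSG the arrays of Inha-/- lay above all wild-type arrays for 32 of the 48 genes and below them for 4. Over all 12500 genes these shares were 14.3% and 11.3%. After hCG the counts were 32 and 2, where all genes gave 22.5% and 17.7%. The model fit with limma, at a Benjamini-Hochberg adjusted p under 0.05, marked 19 genes higher and 3 lower after PMSG, with 2.98% and 3.21% of all genes marked (6.19% in either direction). After hCG it marked 30 and 2, with 12.5% and 8.83% of all genes marked. Without both replicate 1 arrays of Inha-/- the fit marked 29 genes higher after PMSG. Because the genes were picked on this contrast, these counts, of arrays without overlap and of the fit alike, are no test of it and nothing is read from them. The median difference over the 48 genes was 1.43 after PMSG and 2.24 after hCG, and over all genes 0.020 and 0.035.

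By description, 26 genes were higher in Inha-/- without overlap at both times. The share of all genes that meets both conditions was not counted, and nothing is read from the counts of this paragraph. The 26 include the contractile genes, the chains of type I and III collagen, Col6a1 and Col6a2, elastin, and the microfibril genes Mfap2 and Mfap5. Another 6 genes were separated after PMSG alone (Col14a1, Col4a2, Fn1, Fbln5, Mfap4 and Tnc) and a further 6 after hCG alone (Col6a3, Dcn, Ogn, Postn, Thbs1 and Nid1). Col5a2, Col15a1, Col18a1, Lox, Sparc and Lamc1 overlapped between the genotypes at both times. Comp and Coch were lower in Inha-/- at both times, and Fbn2 and Fbln1 were lower after PMSG and overlapped after hCG.

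**Figure D1:**
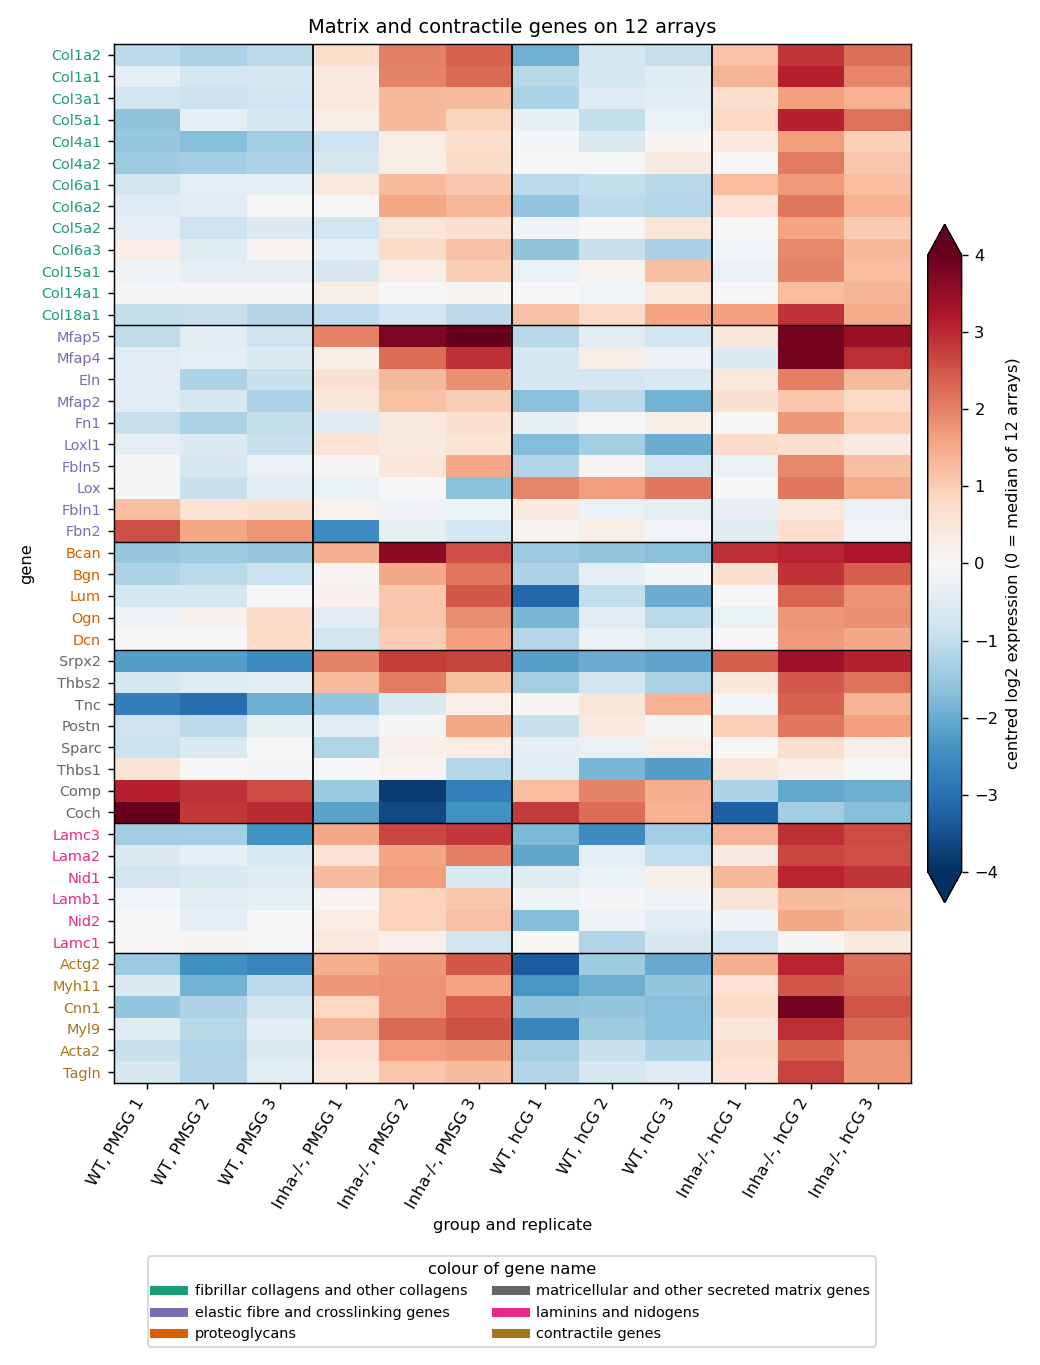
Centred log2 expression (colour, 0 is the median of the 12 arrays, colours saturate at the ends of the bar) of the 48 genes (rows, grouped by role) on the 12 arrays (columns, by group and replicate). Most rows are red in the Inha-/- columns and blue in the wild-type columns, Comp, Coch and Fbn2 run the other way after PMSG, and replicate 1 of Inha-/- is paler than replicates 2 and 3 in many rows.

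Serial number and genotype are not aligned after hCG, while the only late array after PMSG is of Inha-/-. The differences were also taken within each set of arrays. Among the early arrays after PMSG (2 Inha-/- against 3 wild type), 41 of the 48 genes were above 0 with a median of 1.20. For hCG the early arrays hold 1 sample of each genotype, with 40 genes above 0 and a median of 1.55. The late arrays hold 2 of each, with 45 genes above 0 and a median of 2.34. The sign of the full difference was kept by 44, 44 and 47 genes. These arrays are part of the full difference and the genes were chosen on it, so agreement is partly built in. It is a description and no test of the part of serial number. The array names of replicates 1 share a number between genotypes after PMSG, and so do those of replicates 2. The pair of replicates 1 had 35 genes above and 13 below 0 with a median of 0.73, and the pair of replicates 2 had 44 and 4 with a median of 1.72.

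Contractile genes were separated by genotype throughout. Acta2 (smooth muscle alpha actin), Actg2 (smooth muscle gamma actin), Myh11 (smooth muscle myosin heavy chain), Myl9 (regulatory myosin light chain), Cnn1 (calponin) and Tagln (transgelin, an actin-bundling protein) had no overlap between genotypes at either time. Differences ran from 1.68 to 4.09 after PMSG, with a median of 2.80, and from 2.45 to 4.48 after hCG, with a median of 3.75.

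Actg2 had the largest differences of the group. Wild-type arrays read -1.46, -2.47 and -2.69 after PMSG, and Inha-/- arrays read 1.43, 1.74 and 2.49. After hCG the wild-type values were -3.31, -1.43 and -2.01 against 1.43, 3.05 and 2.19. The lowest Inha-/- array at either time thus lay well above the highest wild-type array, and the differences were 4.09 ± 0.54 (SE) and 4.48 ± 0.54.

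Myh11 read -0.58, -1.88 and -1.05 in wild type and a narrow 1.72, 1.80 and 1.58 in Inha-/- after PMSG. The values after hCG were -2.33, -1.95 and -1.55 against 0.58, 2.49 and 2.25. Its differences were 2.87 ± 0.47 and 3.71 ± 0.47. Replicate 1 of Inha-/- after hCG was the low array here, as it was for the other genes of the group.

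Cnn1 read -1.59, -1.24 and -0.74 in wild type against 0.84, 1.79 and 2.41 in Inha-/- after PMSG. After hCG the values were -1.61, -1.55 and -1.68 against 0.74, 3.82 and 2.51. After hCG the wild-type arrays were close to each other and the Inha-/- arrays spread widely, with differences of 2.87 ± 0.63 and 3.97 ± 0.63. Myl9 read -0.47, -1.10 and -0.47 against 1.36, 2.25 and 2.55 after PMSG. After hCG Myl9 read -2.6, -1.41 and -1.64 against 0.47, 2.96 and 2.29. Myl9 differed by 2.73 ± 0.57 and 3.79 ± 0.57.

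Acta2, a common marker of contractile theca cells and pericytes, read -0.89, -1.20 and -0.57 against 0.57, 1.66 and 1.74 after PMSG. Arrays after hCG gave -1.34, -0.88 and -1.24 against 0.63, 2.37 and 1.77. Both sets were separated, with differences of 2.21 ± 0.43 and 2.74 ± 0.43. Tagln was higher by 1.68 ± 0.46 and 2.45 ± 0.46. The other 2 probe sets of Acta2 and the other set of Myh11 hardly varied over the arrays (SD 0.099 or less).

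Because these genes were higher together, their promoters are shown, as the 250 bases before each gene's start in RefSeq on GRCm38.p6, 5′ to 3′ along the gene. A window was given for 28 of the 48 genes. Capitals mark a CArG box, the element that serum response factor binds in smooth muscle genes, in Myl9, the CATTCC element (here on the opposite strand) in Acta2, and CCAAT in Cnn1. CATTCC is the letter sequence of the MCAT element that TEAD factors bind. The windows are chr19:34255374-34255623 on the minus strand for Acta2, chr2:156775214-156775463 on the plus strand for Myl9 and chr9:22099003-22099252 on the plus strand for Cnn1.
Acta2: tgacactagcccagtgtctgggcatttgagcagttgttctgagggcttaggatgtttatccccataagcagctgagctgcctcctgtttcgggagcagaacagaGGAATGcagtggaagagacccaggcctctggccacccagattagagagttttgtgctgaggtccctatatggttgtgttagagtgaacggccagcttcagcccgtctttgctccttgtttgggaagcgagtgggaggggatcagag
Myl9: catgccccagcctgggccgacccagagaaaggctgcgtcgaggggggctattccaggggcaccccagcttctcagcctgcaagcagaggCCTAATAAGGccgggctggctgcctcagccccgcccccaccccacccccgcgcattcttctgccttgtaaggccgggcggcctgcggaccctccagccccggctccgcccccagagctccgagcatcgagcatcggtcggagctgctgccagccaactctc
Cnn1: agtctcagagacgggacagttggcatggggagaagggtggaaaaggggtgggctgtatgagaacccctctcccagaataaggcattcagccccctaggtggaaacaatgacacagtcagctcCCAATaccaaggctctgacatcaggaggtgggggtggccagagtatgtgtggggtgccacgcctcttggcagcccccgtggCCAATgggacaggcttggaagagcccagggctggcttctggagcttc
The CArG box of Myl9 begins at position -161 from the gene's start and the CATTCC element of Acta2 at -146. Each motif was searched on both strands of windows reaching from 250 bases before to 50 after the start. A CArG box was counted only as 10 bases that begin with CC, end with GG and hold nothing but A or T between. Stretches with a C or G among these, such as ccctatatgg and ccttgtttgg in Acta2, were neither counted nor marked. Of all 32851 windows 1.63% held a CArG box, 14.7% CATTCC and 37.4% CCAAT. Among the 28 genes the counts were 2 (Myl9 and Lama2), 7 and 12. A gene was counted if any of its windows held the motif, and Col18a1 had more than 1 window. Counts of genes and shares of windows are therefore not in the same unit. AGCCAGACA, the CAGA box that SMAD proteins bind, was in 0.387% of all windows and in 0 of the 28. A match is a description of the letters only.

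**Figure D2:**
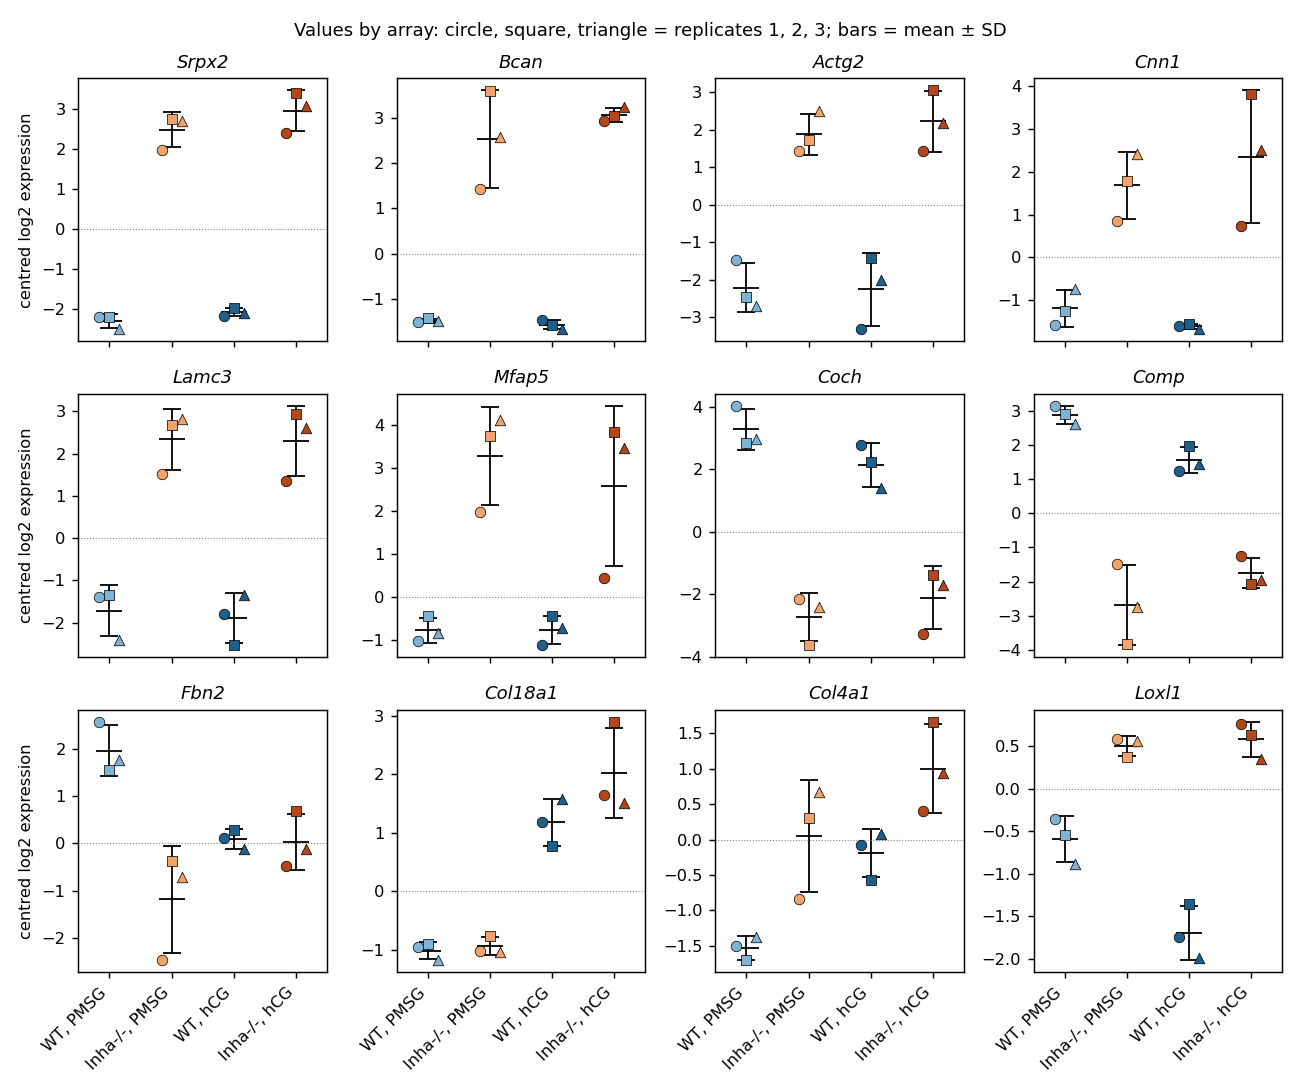
Centred log2 expression (y axis) of 12 genes by group (x axis), with 1 point per array (circle, square and triangle for replicates 1, 2 and 3), a long bar at the mean and short bars at ± 1 SD (n = 3). Srpx2, Bcan, Actg2, Cnn1, Lamc3 and Mfap5 lie higher in Inha-/- at both times, Coch and Comp lie lower, and Fbn2 lies apart between genotypes after PMSG only.

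Of 20 other smooth muscle genes 18 were measured, which here and below means that they were among the 12500 genes fitted. A listed gene outside the fit had no single-gene probe set or varied too little over the arrays to enter it. Of the 18, 7 were higher and 3 lower in Inha-/- without overlap after PMSG, with 8 and 2 after hCG. Over all genes the shares were 14.3% and 11.3% after PMSG and 22.5% and 17.7% after hCG. Their median difference was 0.20 after PMSG and 0.62 after hCG. Tpm2, a muscle tropomyosin, was higher in Inha-/- by 2.52 ± 0.44 and 3.04 ± 0.44. Itga8, the alpha 8 integrin of contractile cells, was higher by 1.94 ± 0.56 and 3.08 ± 0.56, and Csrp1, a LIM protein of the actin cytoskeleton, by 1.87 ± 0.63 and 3.11 ± 0.63. Arrays of the genotypes did not overlap for these 3 genes at either time. Vcl, which encodes the adhesion protein vinculin, was lower without overlap after PMSG (-1.96 ± 0.77), with 1 array at -3.97. With hCG, Pdlim7, which links kinases to actin, rose by 1.96 ± 0.44 in wild type (limma adjusted p = 0.00823) and Mylk, the kinase of the myosin light chain, by 1.38 ± 0.41 (adjusted p = 0.0332). Mrtfb, a cofactor of serum response factor, fell by 0.77 ± 0.17 in Inha-/- (adjusted p = 0.0389).

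Among the 13 listed collagens, the chains of type I collagen were furthest apart. Col1a2 read -1.05, -1.23 and -1.07 in wild type and 0.71, 2.01 and 2.36 in Inha-/- after PMSG. After hCG it read -1.92, -0.71 and -0.92 against 1.14, 2.86 and 2.19. The differences were 2.81 ± 0.50 and 3.25 ± 0.50, which is 7.01-fold and 9.49-fold. Its partner chain Col1a1 was higher by 2.12 ± 0.51 and 2.91 ± 0.51, with Inha-/- arrays from 0.35 to 2.27 after PMSG and from 1.36 to 3.11 after hCG. Both chains were without overlap at both times. The promoter of Col1a2, a gene known for a CCAAT box, is chr6:4505368-4505617 on the plus strand, with CCAAT in capitals.
Col1a2: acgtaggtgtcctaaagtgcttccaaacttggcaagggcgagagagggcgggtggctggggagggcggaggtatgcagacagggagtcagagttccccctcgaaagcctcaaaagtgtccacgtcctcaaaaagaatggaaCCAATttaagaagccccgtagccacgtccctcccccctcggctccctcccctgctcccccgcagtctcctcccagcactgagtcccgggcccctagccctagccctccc

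Type III collagen (Col3a1) was higher by 1.80 and 1.96, and the Col5a1 chain of type V collagen, which starts fibril assembly, by 1.70 and 2.54. Its partner Col5a2 overlapped at both times (0.70 and 0.76). Of the type VI chains, which form beaded filaments around cells, Col6a1 was higher by 1.42 and 2.44, Col6a2 by 1.28 and 2.62 and Col6a3 by 0.55 and 2.31. Col6a3 overlapped after PMSG and was separated after hCG. Col14a1, which decorates fibrils, and the basement membrane zone collagens Col15a1 and Col18a1 showed differences of 0.075 to 0.84 at the 2 times.

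The type IV collagen chains Col4a1 and Col4a2, which form the network of the basal lamina, start in opposite directions on chromosome 8, 21 bases apart. Col4a1 starts at 11312826 on the minus strand and Col4a2 at 11312805 on the plus strand, so their first bases overlap. The 30 bases at chr8:11312764-11312793 follow on the strand of Col4a2, with CCAAT in capitals. They lie 41 to 12 bases before the Col4a2 start, and past the start of Col4a1 inside that gene.
Col4a2: aggagctccCCAATttgttggcgctgcccc
Col4a1 read -1.5, -1.70 and -1.38 in wild type after PMSG and -0.84, 0.30 and 0.68 in Inha-/-. Col4a2 read -1.41, -1.40 and -1.22 against -0.65, 0.23 and 0.73. The chains were thus higher in Inha-/- after PMSG by nearly the same amount, 1.58 ± 0.40 and 1.45 ± 0.46. After hCG the wild-type arrays of Col4a1 read -0.082, -0.56 and 0.082 against 0.40, 1.67 and 0.94. Those of Col4a2 read -0.024, -0.021 and 0.36 against 0.021, 2.08 and 1.08 and overlapped.

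The other type IV chains divided by gene pair. Col4a4 was higher in Inha-/- by 2.36 ± 0.71 after PMSG and 2.67 ± 0.71 after hCG, and Col4a3 by 1.96 ± 0.73 and 2.16 ± 0.73. Col4a6 was lower (-2.73 ± 0.40 and -0.49 ± 0.40), as was Col4a5 (-1.88 ± 0.32 and -0.85 ± 0.32). Only Col4a3 after hCG overlapped between genotypes among these 4 genes. Of 16 other collagens 12 were measured, and 6 were higher and 3 lower without overlap after PMSG, beside 14.3% and 11.3% of all genes.

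Of 16 measured enzymes and chaperones of collagen synthesis, 3 were higher and 0 lower without overlap after PMSG, against 14.3% and 11.3% of all genes, with a median difference of 0.10. After hCG these counts were 6 and 1, against 22.5% and 17.7%. P4ha2, a subunit of the prolyl hydroxylase, was higher by 1.07 ± 0.25 and 1.12 ± 0.25.

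Elastin (Eln) read -0.42, -1.26 and -0.88 in wild type and 0.62, 1.30 and 1.83 in Inha-/- after PMSG, and it read -0.67, -0.68 and -0.60 against 0.42, 2.01 and 1.26 after hCG. Elastin differed by 2.10 and 1.88 on this probe set and by 0.91 and 0.36 on its other probe set. Its microfibril partner Mfap5 was among the most separated genes. Mfap5 read -1.01, -0.44 and -0.83 against 1.98, 3.76 and 4.11 after PMSG. Wild-type and Inha-/- values after hCG were -1.10, -0.45 and -0.73 against 0.44, 3.84 and 3.47. Its differences of 4.05 ± 0.78 and 3.34 ± 0.78 rest on replicates 2 and 3 more than on replicate 1, which after hCG lay far below the other two.

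Mfap2, the second microfibril-associated glycoprotein, was higher by 1.65 ± 0.29 and 2.36 ± 0.29 with no overlap. Mfap4, which binds elastic fibres, had a wide spread: Inha-/- arrays read 0.23, 2.23 and 2.92 after PMSG and -0.53, 3.84 and 2.96 after hCG. Loxl1, a lysyl oxidase needed for elastic fibres, read -0.35, -0.54 and -0.89 in wild type against 0.58, 0.37 and 0.56 in Inha-/- after PMSG. At the later time the values were -1.74, -1.35 and -1.99 against 0.76, 0.63 and 0.35. On this probe set the Inha-/- values were close to each other, and the differences were 1.10 ± 0.22 and 2.27 ± 0.22. The other probe set of Loxl1 gave 0.44 and 1.69. Fbln5, a fibulin needed for elastic fibre assembly, was higher by 0.99 ± 0.54 without overlap after PMSG and overlapped after hCG (1.58 ± 0.54). Fn1 (fibronectin) was higher by 1.21 ± 0.41 after PMSG, and its other probe set read 0.61 after PMSG and -0.68 after hCG.

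Fbn2 and Fbln1 were the elastic fibre genes on the low side. Fbn2, the fibrillin of early microfibrils, read 2.58, 1.56 and 1.76 in wild type after PMSG and -2.48, -0.38 and -0.70 in Inha-/-. After hCG it read 0.11, 0.28 and -0.12 against -0.47, 0.68 and -0.11. The genotypes were 3.15 ± 0.50 apart on the low side before hCG (difference -3.15) and overlapped after it (-0.058 ± 0.50). Its other probe set gave -2.25 and -0.64. Fbln1, a calcium-binding glycoprotein of elastic fibres and basement membranes, read 1.21, 0.59 and 0.62 against 0.14, -0.14 and -0.19 after PMSG. Arrays after hCG gave 0.39, -0.26 and -0.38 against -0.32, 0.43 and -0.27, where the groups overlapped. Fbln1 differed by -0.87 after PMSG on this probe set. The other probe sets of Fbln1 gave -0.42 and -0.040 after PMSG and 0.50 and 0.18 after hCG.

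Of 12 other elastic fibre and microfibril genes 10 were measured. Emilin1, an elastin-associated glycoprotein, was higher by 2.43 ± 0.63 and 3.36 ± 0.63, Emilin2 by 2.32 ± 0.29 and 2.45 ± 0.29, and Ltbp4, which holds latent TGF-beta on microfibrils, by 1.48 ± 0.42 and 2.30 ± 0.42. Efemp1, a further fibulin, was lower (-1.15 and -0.94). Arrays did not overlap for these 4 genes at either time.

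Proteoglycans were higher in Inha-/- for 3 of the 5 genes without overlap after PMSG and for 5 of 5 after hCG, where 14.3% and 22.5% of all genes were. Bcan, the hyaluronan-binding proteoglycan brevican known from brain, read -1.51, -1.44 and -1.5 in wild type against 1.44, 3.59 and 2.58 after PMSG. Following hCG the values were -1.47, -1.58 and -1.67 against 2.94, 3.05 and 3.24. Both hCG groups were tight, and the differences were 4.02 ± 0.40 and 4.65 ± 0.40.

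The small leucine-rich proteoglycans, which bind collagen fibrils, spread more. Bgn (biglycan) was higher by 2.29 ± 0.61 and 2.51 ± 0.61. Lum (lumican) was higher by 1.69 ± 0.71 and 3.41 ± 0.71, with wild-type arrays at -3.13, -1.0 and -2.0 after hCG. Dcn (decorin) and Ogn (osteoglycin) overlapped after PMSG (0.38 and 0.60) and were separated after hCG (1.70 and 2.21). Among 8 other measured proteoglycans of 14 listed, Fmod (fibromodulin) was higher by 2.39 ± 0.62 and 3.01 ± 0.62 and Aspn (asporin) by 2.03 ± 0.68 and 3.28 ± 0.68, both without overlap. Vcan, the versican of the expanding cumulus, overlapped after PMSG and was lower in Inha-/- after hCG (-1.65 ± 0.50).

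The matricellular and secreted group held the genes furthest above and furthest below wild type. Srpx2, a secreted sushi-repeat protein, read -2.21, -2.21 and -2.51 in wild type and 1.98, 2.76 and 2.71 in Inha-/- after PMSG. After hCG it read -2.18, -1.98 and -2.10 against 2.39, 3.39 and 3.09. No other of the 48 genes was further above wild type, with differences of 4.79 ± 0.28 and 5.04 ± 0.28, or 27.7-fold and 33.0-fold.

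Coch and Comp ran the other way. Coch, the secreted protein cochlin of the inner ear matrix, read 4.03, 2.84 and 2.97 in wild type and -2.15, -3.62 and -2.43 in Inha-/- after PMSG. At the later time the values were 2.79, 2.24 and 1.39 against -3.27, -1.39 and -1.70. The differences were -6.01 ± 0.57 and -4.26 ± 0.57. Comp, the pentameric thrombospondin of cartilage and tendon, read 3.12, 2.89 and 2.61 against -1.48, -3.81 and -2.74 after PMSG. The values after hCG were 1.23, 1.98 and 1.45 against -1.23, -2.06 and -1.95. Its differences were -5.55 ± 0.48 and -3.30 ± 0.48. Neither gene overlapped at either time, and both differences were smaller after hCG. The interaction passed for neither (limma adjusted p = 0.336 for Coch and 0.133 for Comp). Among early arrays Coch differed by -6.17 after PMSG and by -6.06 after hCG, with 1 array of each genotype after hCG. Among late arrays after hCG it differed by -3.36. For Comp these values were -5.52, -2.47 and -3.71.

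The Coch promoter, shown as that of the gene furthest below wild type, is chr12:51593091-51593340 on the plus strand and held 0 of the searched motifs.
Coch: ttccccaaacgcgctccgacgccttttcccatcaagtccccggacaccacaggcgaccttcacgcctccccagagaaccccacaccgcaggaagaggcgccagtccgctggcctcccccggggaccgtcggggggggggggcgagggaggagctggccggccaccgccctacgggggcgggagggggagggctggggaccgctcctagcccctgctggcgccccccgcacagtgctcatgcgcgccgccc

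Of the other secreted genes, Thbs2, an inhibitor of vessel growth, was higher by 2.02 ± 0.45 and 2.80 ± 0.45. Postn (periostin, a collagen-binding matricellular protein) was higher without overlap only after hCG (1.74 ± 0.50), as was Thbs1 (1.73 ± 0.45), for which the genotypes overlapped after PMSG (-0.52 ± 0.45). Tnc (tenascin C) was higher by 1.93 ± 0.61 after PMSG, but its other probe set gave -0.031 there. Sparc, a collagen-binding glycoprotein, overlapped at both times. Among 13 other measured matricellular genes, Ccn1, a matricellular target of growth factors and mechanical signals, was lower (-3.70 ± 0.63 and -4.59 ± 0.63), as was Ccn2 (-3.04 ± 0.47 and -2.26 ± 0.47), both without overlap. After PMSG 5 of the 13 were higher and 2 lower without overlap, beside 14.3% and 11.3% of all genes.

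Among laminins, Lamc3, which encodes a gamma chain of restricted tissues, stood out. It read -1.39, -1.35 and -2.41 in wild type against 1.52, 2.68 and 2.81 after PMSG. After hCG it read -1.79, -2.52 and -1.35 against 1.35, 2.93 and 2.60. The differences of 4.06 ± 0.50 and 4.18 ± 0.50 contrast with Lamc1, the common gamma chain, which overlapped at both times (-0.075 ± 0.38 and 0.52 ± 0.38).

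Lama2, the alpha chain of muscle basement membranes, read -0.59, -0.33 and -0.60 against 0.54, 1.57 and 2.03 after PMSG. Following hCG the values were -2.08, -0.37 and -0.97 against 0.33, 2.68 and 2.57. Its values were separated at both times, by 1.89 ± 0.62 and 3.0 ± 0.62. Lama2 is the second gene with a CArG box of the strict form searched. The box is at position -39 from its start and in capitals in chr10:27616943-27617192 on the minus strand.
Lama2: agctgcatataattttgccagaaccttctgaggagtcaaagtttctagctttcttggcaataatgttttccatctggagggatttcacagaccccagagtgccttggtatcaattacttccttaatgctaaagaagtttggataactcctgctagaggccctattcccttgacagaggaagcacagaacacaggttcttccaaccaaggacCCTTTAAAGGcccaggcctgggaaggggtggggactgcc
Lamb1, the common beta chain, was higher by 0.99 ± 0.28 and 1.12 ± 0.28. The nidogens, which link laminin to type IV collagen, were higher after hCG without overlap (Nid1 2.57 ± 0.56, Nid2 1.66 ± 0.47). After PMSG Nid2 was separated (0.92 ± 0.47), while 1 of 3 Inha-/- arrays of Nid1, replicate 3 at -0.61, lay among the wild-type arrays. Of 8 other measured basement membrane genes 2 were higher and 1 lower without overlap after PMSG, and 4 and 1 after hCG. Over all genes the shares were 14.3% and 11.3% after PMSG and 22.5% and 17.7% after hCG.

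**Figure D3:**
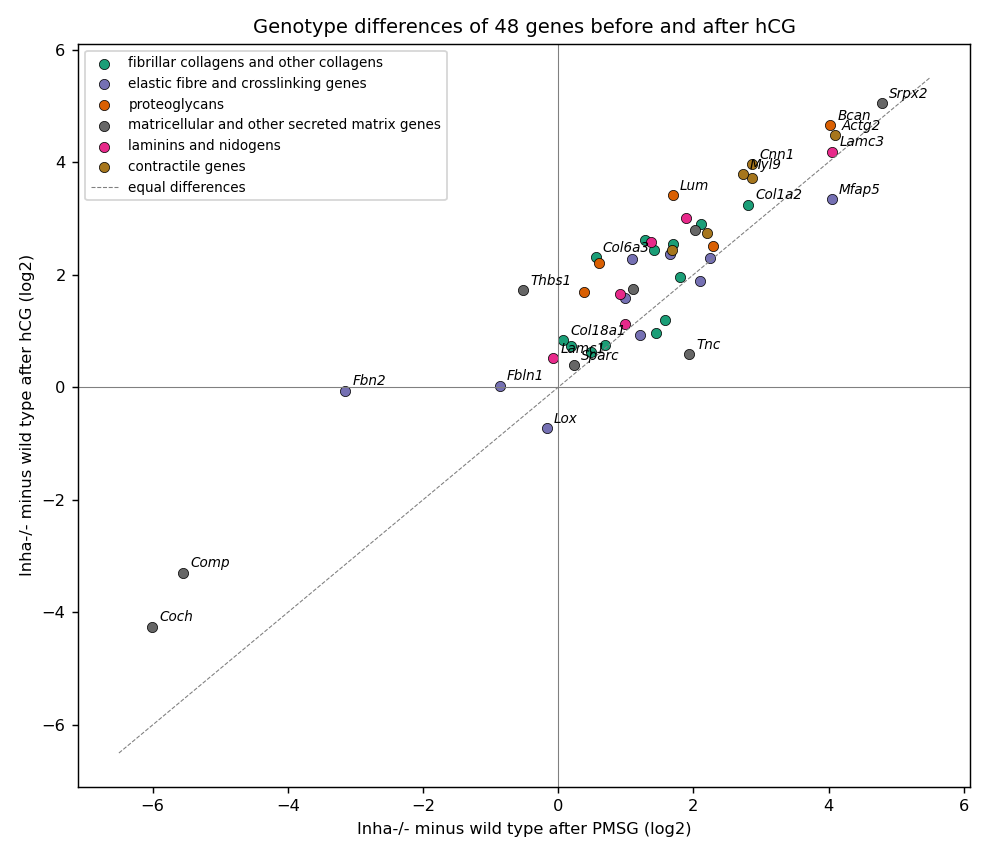
Difference Inha-/- minus wild type in log2 after PMSG (x axis) against the same after hCG (y axis) for the 48 genes, coloured by role, with the line of equal differences dashed. Most genes lie in the upper right, Comp and Coch lie far to the lower left, and Fbn2 lies at -3.15 on the x axis and near 0 on the y axis.

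Markers of other cell types differed with genotype and array, as the plot of list medians by array shows. Oocyte markers had the largest median difference of the marker lists, 2.92 and 3.68, and the 11 measured markers were above 0 at both times. They ranged from 1.09 to 3.88 after PMSG and from 1.98 to 6.61 after hCG, with the zona pellucida gene Zp3 the highest (3.88 ± 0.83 and 6.61 ± 0.83). Their median by array ran from -1.83 to -0.61 in wild type and from 0.68 to 3.23 in Inha-/-, with the lowest Inha-/- value on replicate 1 after hCG. The median of the 48 genes was also lowest on replicate 1 within Inha-/-: 0.25, 1.09 and 1.19 after PMSG and 0.44, 2.09 and 1.44 after hCG.

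Pericyte and smooth muscle markers that are not among the 48 genes moved less. Of 7 measured, 3 were higher without overlap at both times: Cspg4 (2.40 ± 0.41 and 2.48 ± 0.41), Mcam (1.03 ± 0.36 and 1.25 ± 0.36) and Des. Of all genes 14.3% were higher without overlap after PMSG and 22.5% after hCG. The pericyte marker Rgs5 overlapped (0.44 and 0.33). Their median by array ran from -0.61 to 0.24 in wild type and was -0.14, -0.017 and 0.20 in Inha-/- after PMSG and 0.084, 1.16 and 1.27 after hCG.

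Theca and stroma markers divided: of 13 measured, 3 were higher and 5 lower without overlap after PMSG, and 4 and 3 after hCG. Over all genes the shares were 14.3% and 11.3% after PMSG and 22.5% and 17.7% after hCG. Gli2, a mediator of hedgehog signalling in theca, was higher by 2.73 ± 0.27 and 2.52 ± 0.27, and the mesenchymal factor Tcf21 by 2.46 ± 0.67 and 2.76 ± 0.67. Cyp17a1, the androgen-making enzyme that defines endocrine theca cells, was lower (-2.94 ± 0.62 and -1.36 ± 0.62). Arrays did not overlap for these 3 genes. Insl3 and Lhcgr were not analysed here. The median of 13 theca and stroma markers ran from 0.060 to 0.59 in Inha-/- after PMSG and from -0.18 to 0.64 after hCG, against -0.20 to 0.15 in wild type.

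Endothelial (11 measured) and leukocyte (9 measured) markers had median differences of 0.012 and 0.31 after PMSG and -0.044 and 0.18 after hCG. Surface epithelium markers were lower, with a median of -1.47 and -1.42 over 8 genes. The 12 granulosa markers had medians of -0.33 and 1.47. The part of these cell types in the differences of the 48 genes was not tested. In samples of whole RNA, fewer cells of a type and less RNA per cell cannot be told apart.

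**Figure D4:**
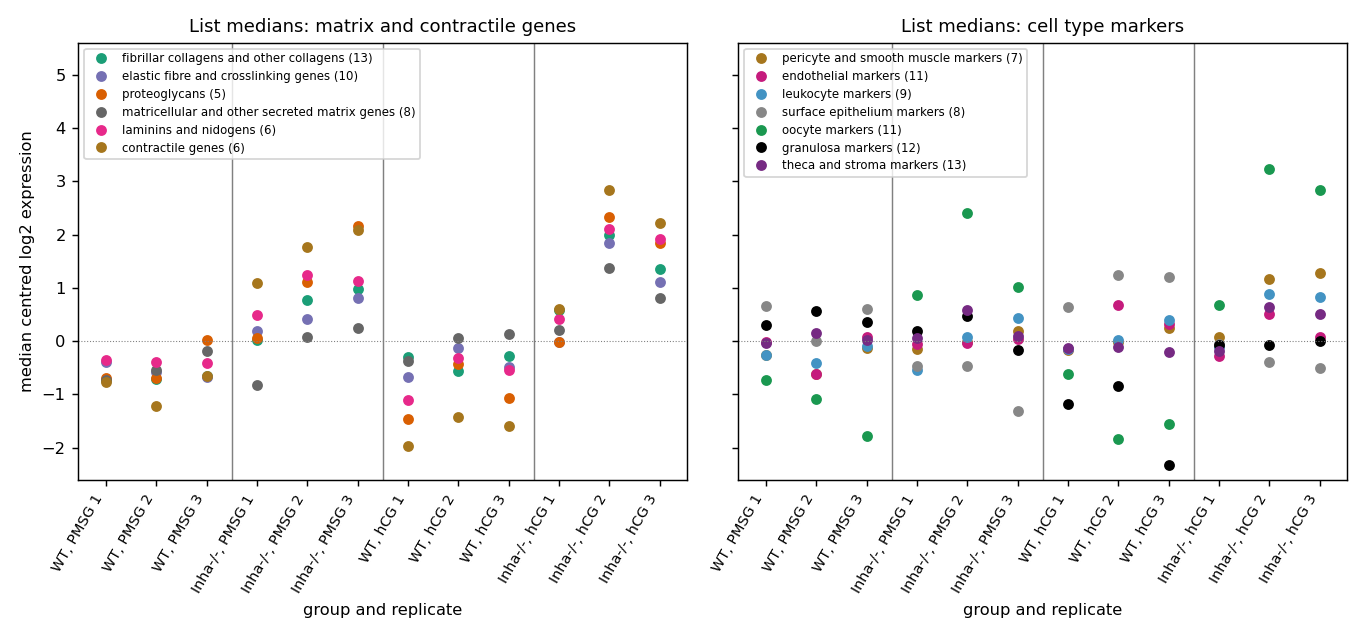
Median centred log2 expression (y axis) of each gene list on each of the 12 arrays (x axis, by group and replicate), for the 6 roles of the 48 genes (left) and for 7 lists of cell type markers (right), with the number of genes in brackets. The contractile genes reach 2.83 and the oocyte markers 3.23 on replicate 2 of Inha-/- after hCG, and both lie lower on replicate 1.

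The hCG comparison asks how follicle cells respond to the ovulatory signal in 6 h. The rule that chose the genes did not name it. In each genotype it shares its 6 arrays with the genotype contrasts, and the genes were listed with earlier results of these data known. In wild type 5 of the 48 genes rose and 4 fell (limma, adjusted p under 0.05 over 12500 genes), which is 10.4% and 8.33%. Over all genes 9.87% rose and 12.2% fell (22.1% together), shares near those of the 48 genes. The count that fell depended on the model: it was 11 with early or late serial number as a covariate, 8 with array weights and 6 with the replicate number as a block. All 3 wild-type PMSG arrays are early and 2 of the 3 wild-type hCG arrays are late. Their median response was -0.13 against -0.063 for all genes. The genes that rose were Col18a1, Tnc, Lox, Col4a1 and Col4a2, and those that fell were Fbn2, Loxl1, Thbs1 and Fbln1. In the main fit the contractile, laminin and proteoglycan groups had 0 calls in either direction, and at an unadjusted p under 0.05 the 48 genes gave 6 higher and 9 lower. With the serial covariate, Myl9 (-2.09, limma adjusted p = 0.00771), Lum (-2.82, adjusted p = 0.00121), Ogn, Dcn, Lama2 and Nid2 of these groups passed as falling. Lum and Ogn also passed with the replicate block (adjusted p = 0.0418 and 0.0252). The count that rose was 3 without any of the 3 wild-type PMSG arrays or without replicate 1 or 3 of wild type after hCG. The count that fell was 1 without replicate 1 of wild type after PMSG, 2 without its replicate 2, 1 without replicate 3 of wild type after hCG, and 8 without both replicate 1 arrays of Inha-/-.

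Col18a1, the collagen whose end fragment is endostatin, was the one gene called in both genotypes. The per-array values were -0.96, -0.91 and -1.19 in wild type after PMSG and 1.18, 0.77 and 1.57 after hCG. In Inha-/- they were -1.02, -0.77 and -1.05 before and 1.64, 2.90 and 1.5 after. The groups did not overlap in either genotype. Col18a1 rose by 2.19 ± 0.34 in wild type (adjusted p = 0.00111), or 4.56-fold, and by 2.96 ± 0.34 in Inha-/- (adjusted p = 0.000367), or 7.76-fold. The responses differed by 0.76 with a 95% interval from -0.28 to 1.81. Its second probe set gave 1.48 and 2.35, and the call held in both genotypes in each alternative run.

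Lox, which crosslinks collagen and elastin, read -0.060, -0.90 and -0.42 before and 1.95, 1.67 and 2.12 after hCG in wild type. In Inha-/- it read -0.27, 0.025 and -1.64 before and -0.025, 2.12 and 1.47 after, with overlap. Lox rose by 2.37 ± 0.53 in wild type (adjusted p = 0.00838), a call kept in each alternative run. In Inha-/- the value was 1.82 ± 0.53 (adjusted p = 0.135), and it passed without replicate 1 of Inha-/- after hCG (2.43, adjusted p = 0.0165). The difference of responses was -0.56, with an interval from -2.20 to 1.09.

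Tnc read -2.77, -3.01 and -1.94 before and 0.053, 0.49 and 1.40 after hCG in wild type, and -1.55, -0.58 and 0.21 before and -0.053, 2.37 and 1.37 after in Inha-/-. On this probe set it rose by 3.22 ± 0.61 in wild type (adjusted p = 0.00388). The second probe set of Tnc, the one with the higher mean, gave the opposite, -1.91 (adjusted p = 0.0051). The direction of Tnc is therefore not settled by these arrays.

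Col4a1 and Col4a2, with the values given above, rose by 1.34 ± 0.40 (adjusted p = 0.0319) and 1.45 ± 0.46 (adjusted p = 0.042) in wild type without overlap between times. In Inha-/- the values were 0.96 ± 0.40 and 0.96 ± 0.46 and did not pass. Both calls were lost without any one of the 3 wild-type PMSG arrays (adjusted p 0.0628 to 0.106), without replicate 1 or 3 of wild type after hCG, and with early or late serial number in the model (0.97 and 0.85). The second probe set of Col4a1 gave 0.64 (adjusted p = 0.218).

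Of the genes that fell, Loxl1 had the smallest adjusted p. It fell by 1.10 ± 0.22 in wild type (adjusted p = 0.00486) with no overlap, and in Inha-/- the value was 0.078 ± 0.22. Its other probe set gave -0.040 in wild type (adjusted p = 0.947) and rose by 1.21 in Inha-/- (adjusted p = 0.00532), so the genotype in which Loxl1 responds is not settled by these arrays. Thbs1, an inhibitor of vessel growth and activator of latent TGF-beta, read 0.55, 0.0032 and -0.062 before and -0.41, -1.83 and -2.21 after hCG in wild type. In Inha-/- it read -0.0030, 0.098 and -1.16 before and 0.45, 0.28 and 0.0030 after. Thbs1 fell by 1.65 ± 0.45 in wild type (adjusted p = 0.0223). The call was lost without replicate 1 or 2 of wild type after PMSG and without replicate 2 or 3 of wild type after hCG (adjusted p 0.0522 to 0.109), and with the serial covariate (-0.95, adjusted p = 0.07).

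Fbn2 fell by 1.87 ± 0.50 in wild type (adjusted p = 0.0203), from 1.97 ± 0.54 (SD, n = 3) to 0.092 ± 0.20. Without replicate 1 of wild type after PMSG the value was -1.57 (adjusted p = 0.0793) and without replicate 3 of wild type after hCG -1.77 (adjusted p = 0.0829). Fbln1 fell by 0.89 ± 0.28 (adjusted p = 0.0431), and leaving out any wild-type PMSG array, or replicate 2 or 3 of wild type after hCG, ended the call (adjusted p 0.0655 to 0.167). So did the random block on the array-name number (adjusted p = 0.0665), the serial covariate (0.139) and no SD filter (0.0614). The other probe sets of Fbln1 gave -0.66 and -0.10 in wild type. Removing replicate 2 of Inha-/- after PMSG or replicate 3 of Inha-/- after hCG, which changes only the shared spread, ended the calls of Fbln1 and Col4a2 as well.

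In Inha-/- 1 of the 48 genes rose with hCG, Col18a1, and 0 fell, where 2.45% of all genes rose and 0.224% fell. At an unadjusted p under 0.05 the counts were 9 and 0. The arrays before and after hCG did not overlap for 1 gene that was higher and 0 lower, against 7.98% and 7.6% of all genes. The median response of the 48 genes was 0.48 against -0.029 over all genes, and 42 of them were above 0. Tnc (1.87 ± 0.61, adjusted p = 0.205), Lox and Nid1 (1.64 ± 0.56, adjusted p = 0.23) had the next largest values and did not pass. Without replicate 1 of Inha-/- after hCG 4 genes passed, the added ones being Lox, Tnc and Col14a1.

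The interaction, the response in Inha-/- minus that in wild type, uses the genotype contrast and is not independent of the choice of genes. It passed for 1 gene, Fbn2, at 3.09 ± 0.71 (adjusted p = 0.0499, interval 1.54 to 4.65), where 0.584% of all genes passed upward and 1.5% downward. The gene lay at the threshold. The call was lost without any one of 9 of the 12 arrays, replicates 1, 2 and 3 of wild type after PMSG, replicate 3 of Inha-/- after PMSG, replicates 1 and 3 of wild type after hCG and the 3 Inha-/- hCG arrays (2.77 to 3.35, adjusted p 0.0589 to 0.128). It was also lost with the replicate number as a block (adjusted p = 0.0625), a random block on the array-name number (0.0637), serial number as a covariate (0.0509), no SD filter (0.108) and the early arrays alone (0.462). The second probe set of Fbn2 gave 1.61. Loxl1 (1.18 ± 0.31, adjusted p = 0.0866), Thbs1 (2.24 ± 0.64, adjusted p = 0.112) and Comp (2.25 ± 0.68, adjusted p = 0.133) came next and did not pass. Thbs1 passed without replicate 1 of wild type after hCG (2.78, adjusted p = 0.0209), with the replicate block (adjusted p = 0.0373) and with the serial covariate (1.90, adjusted p = 0.0482). Loxl1 passed without replicate 2 of wild type after hCG (1.35, adjusted p = 0.0363). It also passed with the mean over probe sets (1.21, adjusted p = 0.019) and on its other probe set (1.25, adjusted p = 0.0379). Comp passed without replicate 1 of Inha-/- after PMSG (2.85, adjusted p = 0.0218), without both replicate 1 arrays of Inha-/- (adjusted p = 0.0407) and with array weights (adjusted p = 0.0382). Lum passed with the serial covariate (2.33, adjusted p = 0.0421). At an unadjusted p under 0.05 there were 9 genes above and 0 below.

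**Figure D5:**
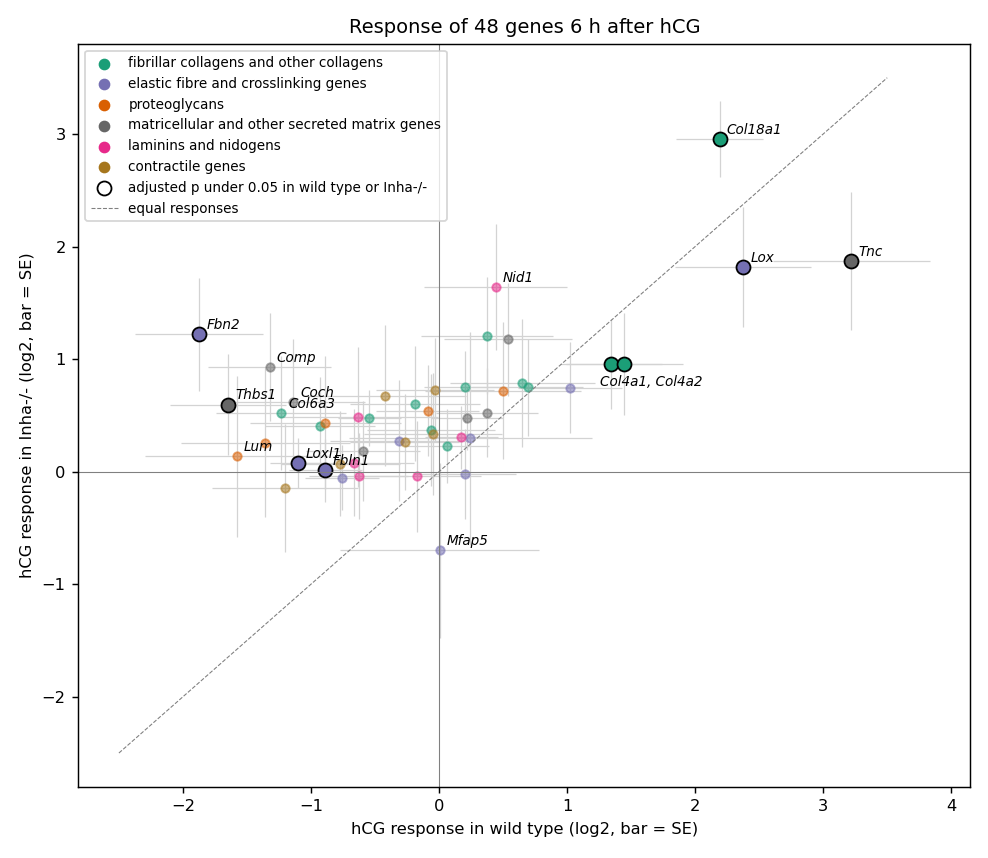
Response to hCG in log2 in wild type (x axis) against Inha-/- (y axis) for the 48 genes, coloured by role, with grey bars of 1 SE and large outlined points for genes called in either genotype. Col18a1 stands at 2.19 and 2.96, and Fbn2 lies on opposite sides of 0, at -1.87 and 1.22.

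Other genes of the matrix pathways were counted against the same shares of all genes in wild type, 9.87% rising and 12.2% falling. Adamts3, a procollagen-cleaving protease, rose by 4.05 ± 0.30 in wild type (adjusted p = 4.24e-06) and its response in Inha-/- was 0.65 ± 0.30 (interaction -3.39 ± 0.42, adjusted p = 0.00159). Vcan rose by 3.30 ± 0.50 in wild type (adjusted p = 0.00102), with 1.80 ± 0.50 in Inha-/- (adjusted p = 0.113). In contrast, Plod1, a lysyl hydroxylase, fell by 0.98 ± 0.28 (adjusted p = 0.0281) and Serpinh1, the collagen chaperone HSP47, by 0.88 ± 0.26 (adjusted p = 0.0331). In all 1 of the 16 processing genes rose and 2 fell in wild type, near those shares.

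Of 12 other collagens 0 rose and 3 fell: Col4a6 by 2.20 ± 0.40 (adjusted p = 0.00284), Col11a1 by 1.71 ± 0.40 (adjusted p = 0.0108) and Col4a5 by 1.25 ± 0.32 (adjusted p = 0.0158). Thus Col4a5 and Col4a6 fell where Col4a1 and Col4a2 rose. Of 8 other basement membrane genes 0 rose and 2 fell, Lama4 by 2.69 ± 0.56 (adjusted p = 0.00599) and Smoc1 by 1.57 ± 0.31 (adjusted p = 0.00489), and the interaction passed for Smoc1 (2.17 ± 0.44, adjusted p = 0.0307). Of 8 other proteoglycans Vcan rose, and Omd (osteomodulin) fell by 2.23 ± 0.51 (adjusted p = 0.00916) and Agrn (agrin) by 0.98 ± 0.25 (adjusted p = 0.0174).

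Among 10 other elastic fibre genes, Ltbp1 fell by 0.65 ± 0.20 (adjusted p = 0.0349) and Fblim1, which encodes a filamin-binding adhesion protein and no elastic fibre protein, rose by 2.16 ± 0.54 (adjusted p = 0.0149). Of 13 other matricellular genes Fgl2 rose by 2.01 ± 0.47 (adjusted p = 0.0109) and Matn2 by 1.43 ± 0.32 (adjusted p = 0.0084). Receptors for matrix rose in wild type for 5 of 21 genes and fell for 0, beside 9.87% and 12.2% of all genes. The collagen receptor subunit Itga2 rose by 3.62 ± 0.59 (adjusted p = 0.00162), the heparan sulfate proteoglycan Sdc1 by 3.23 ± 0.28 (adjusted p = 1.46e-05), the hyaluronan receptor Cd44 by 3.11 ± 0.55 (adjusted p = 0.00263) and the fibronectin receptor subunit Itga5 by 1.97 ± 0.46 (adjusted p = 0.0108). In Inha-/- Itga2 rose by 2.56 ± 0.59 (adjusted p = 0.0447) and Sdc1 by 1.74 ± 0.28 (adjusted p = 0.00488).

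Granulosa markers moved with hCG in the same arrays: 10 of 12 fell in wild type, with a median of -1.83, and 0 of 12 in Inha-/-, with a median of -0.14. Over all genes 12.2% fell in wild type and 0.224% in Inha-/-, so the count of 0 in Inha-/- is near the share of all genes. The median of the granulosa markers by array after hCG was -1.17, -0.85 and -2.33 in wild type. Its part in the responses of the matrix genes was not tested.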

How the data were processed

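Granulosa cell RNA from 12 samples, 3 per group, was read on a single-colour Affymetrix array with 45101 probe sets. The deposited values are log2 values made by the authors with GCRMA, per the submitters' processing notes (version not given in the sources used here), and each probe set is centred on its median over the 12 arrays. The log base was inferred from the deposited values: the widest probe set spans 13.3 units, more than the 11.1 natural-log units of a 16-bit scanner. Whether a probe set lay above background was not analysed here.

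Probe sets with 1 gene symbol (34945) were kept, control probe sets (64), those naming several genes (932) and those without a gene name (9160) were left out, and the set of largest SD over the 12 arrays stood for its gene. Genes with an SD of at least 0.151, the upper 60%, were tested (12500). Group means were fitted with limma 3.58.1 in R 4.3.3 over the 12 arrays together, with 5 contrasts and Benjamini-Hochberg adjustment over the 12500 genes at a threshold of 0.05; errors are SE of the fit unless SD is given. The fit was tested on simulated data. Tables and plots used Python 3.11.15, pandas 2.3.3 and matplotlib 3.10.9.

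The genes and lists were chosen with earlier results of these data known, so for genotype contrasts no p-value is printed and counts are a description. The hCG response in either genotype shares its 6 arrays, after PMSG and after hCG, with the genotype contrasts. Genes named with their array values are the 6 furthest non-overlapping in each direction of a genotype contrast, the genes called in an hCG contrast or the interaction, and those with a sequence shown; other genes are given by range, count or difference, with up to 4 per list. Eln, Mfap4 and Lum were given array values after these were seen. Alternatives were a replicate block, a random block on the array-name number, serial number as a covariate, no SD filter, other rules for probe sets, array weights and leaving out arrays. Leaving out both replicate 1 arrays of Inha-/- and using the 7 early arrays alone were added after seeing the data.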

Additional observations from a re-analysis of the deposited data

Results flagged for a closer look

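Fbn2, which encodes fibrillin 2, was at the threshold for a difference between genotypes in its response to hCG. The 48 genes were chosen on the genotype contrast, from which this difference is built, so its p is no independent evidence. Its response in Inha-/- minus that in wild type was 3.09 ± 0.71 (limma, adjusted p = 0.0499 over 12500 genes), from -1.87 ± 0.50 in wild type and 1.22 ± 0.50 in Inha-/-. The call was lost in most single-array omissions and with the replicate block, and the adjusted p ranged from 0.023 to 0.462 over the alternatives.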

How the results depend on the processing

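With the 7 early arrays alone the genotype counts were 4 higher and 1 lower after PMSG and 4 and 1 after hCG, the hCG counts in wild type were 2 rising and 2 falling, and the interaction gave 0. Without both replicate 1 arrays of Inha-/- 29 genes were higher after PMSG, 8 fell with hCG in wild type, 3 rose in Inha-/- and the interaction gave 2. Serial number as a covariate gave 3 rising and 11 falling in wild type and 2 interactions. A random block on the array-name number, and no SD filter, each gave 3 rising in wild type and 0 interactions. Array weights gave 8 falling in wild type and 2 interactions. With the mean over probe sets the interaction gave 2. With the probe set of highest mean 2 genes rose in Inha-/-, the interaction gave 2, and Tnc turned to -0.031 between genotypes after PMSG and to -1.91 with hCG in wild type. Leaving out 1 array at a time gave 13 to 27 genes higher and 3 to 3 lower after PMSG, 24 to 36 higher and 2 to 2 lower after hCG, 3 to 6 rising and 1 to 5 falling in wild type, 1 to 4 rising and 0 to 0 falling in Inha-/-, and 0 to 2 upward interactions. The cause of these changes was not tested. Arrays with the same replicate number did not deviate together in every pair (r from -0.13 to 0.30), so replicate numbers were not taken as a pairing, although replicates 1 and 2 of both genotypes after PMSG also share a number in their array names (r = 0.18 and 0.30); with the replicate block 24 genes were higher and 3 lower after PMSG, 34 and 2 after hCG, 5 rose and 6 fell in wild type, 1 rose in Inha-/-, and 1 interaction passed, that of Thbs1 (adjusted p = 0.0373), while Fbn2 was lost (adjusted p = 0.0625). Precision is limited by 3 arrays a group and by centred values without a measure of signal over background.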
